A study of Mus musculus with 24 samples.

Results

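Expression of 9 genes from the upstream part of the interferon (IFN) pathway was followed in 4 populations made from EO771, a mouse mammary carcinoma cell line. The genes were the receptor subunits Ifnar1 and Ifnar2, the RNA sensors Ifih1, Ddx58 and Dhx58, and the transcription factors Stat2, Irf9, Irf1 and Irf7. They were taken by symbol from the 13915 genes of the batch 2 table, where Ddx58 carries its newer name Rigi, and by the same Ensembl identifiers from the 55471 genes of the batch 1 table. All 9 were present in both tables and passed the filter on low counts in both batches.

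EO771 cells had been transduced with the retroviral vector pLNCX2. X2 cells carried the control vector. CCR7 cells carried mouse Ccr7 cDNA with the tdTomato reporter, and CCR7-PDPN cells were Ccr7-transduced cells sorted for high surface podoplanin (PDPN), which had appeared spontaneously. The study also detected tdTomato in X2 cells and checked its level across derivatives. X2-PDPN cells were control-vector cells sorted for high PDPN. All were grown in RPMI medium with serum, and the sources used here describe no interferon or other stimulus. The CCR7 cells had been selected for absence of PDPN. Flow sorting enriched each population, and each condition is represented by 1 such population. The series text calls the populations subclones, whereas the study's methods state that no clones were selected. X2 and CCR7-PDPN were sequenced in batch 1 together with CCR7 and again in batch 2 together with X2-PDPN, with 4 libraries per population and batch and 24 in all. Both sources describe the 4 libraries of a population as technical replicates, so the p-values measure a spread that does not include differences between independently derived populations.

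Type I interferons bind a receptor made of the IFNAR1 and IFNAR2 chains, whose kinases JAK1 and TYK2 phosphorylate STAT2. With IRF9 it forms part of the complex ISGF3, which enters the nucleus and activates genes with an interferon-stimulated response element (ISRE). The cytosolic helicases RIG-I (Ddx58) and MDA5 (Ifih1) detect viral RNA and signal through MAVS, with LGP2 (Dhx58) as a regulator, and several genes of the pathway, Irf7 and the sensors among them, are themselves interferon targets. IRF7 drives transcription of type I interferon genes and IRF1 acts in the response to interferon-gamma, which works through the GAS element. Many cells keep a low level of this signalling without infection.

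Library totals lay between 22275468 and 33395418 reads in batch 1 and between 22788542 and 35721027 in batch 2. Levels are given in TPM, reads per exonic base scaled to the same total in every library, so that they can be compared between genes. The labelled alterations were present: Ccr7 averaged 5311 to 5911 TPM in the transduced groups and at most 1.25 in the others, and Pdpn had between 576 and 924 reads per library in the groups sorted for PDPN and at most 20 in the rest. Of 6 markers of EO771, Krt8, Vim, Twist1 and Wnt7b were expressed, while Krt18 and Epcam were under 1 TPM in every batch 1 library. Of 8 markers of immune cells, 7 were under 1 TPM in every batch 1 library, among them Ptprc, and the summed level was carried by the lysozyme gene Lyz2 (the batch 2 table held 2 of the 8). That sum lay between 18.2 and 23.6 TPM in the 2 X2 groups, between 18.6 and 19.7 in X2-PDPN, between 4.12 and 6.65 in CCR7 and between 1.21 and 2.78 in the 2 CCR7-PDPN groups. It was thus low in the Ccr7-transduced populations, and its part in the differences described below was not tested. The summed level of 6 endothelial and stromal markers, 5 of them in the batch 2 table, lay between 95.2 and 124 TPM in every library. That sum was carried by Pdgfra and Pdgfrb, and the other 4 markers were under 1 TPM in every batch 1 library. In such bulk samples fewer cells with a transcript and less of it per cell cannot be told apart.

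In control cells the 9 genes spanned about an order of magnitude in level. Ddx58 was highest, with 44.3 ± 1.27 TPM in X2 of batch 1 (SD, n = 4). It was followed by Stat2 (32.96 ± 1.36 TPM), Irf9 (31.5 ± 2.12), Dhx58 (27.6 ± 1.37), Ifnar1 (27.0 ± 0.765), Ifnar2 (22.6 ± 1.02), Irf7 (21.1 ± 1.65) and Irf1 (13.6 ± 0.790). Ifih1 was lowest with 4.59 ± 0.293 TPM. Stat2 and Irf9, Irf9 and Dhx58, Dhx58 and Ifnar1, and Ifnar2 and Irf7 overlapped between libraries, so their order is not resolved. The same order was found in X2 of batch 2. In CCR7-PDPN of batch 1 the order was different, with the receptor chain Ifnar1 in the lead at 34.1 ± 0.901 TPM, then Stat2, Ifnar2, Ddx58, Irf1, Dhx58, Irf9 and Irf7, and Ifih1 at 0.536 ± 0.0674 TPM at the end. Only Dhx58 and Irf9 overlapped there as neighbours in the order.

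The receptor chain Ifnar2 (chromosome 16, 91372783 to 91405589 on GRCm38, plus strand) was at similar levels in all libraries. In batch 1 the X2 libraries had 21.1 to 23.4 TPM, the CCR7 libraries 21.6 to 26.45 and the CCR7-PDPN libraries 23.2 to 24.04. In batch 2 the X2 libraries had 20.7 to 23.2 TPM, the X2-PDPN libraries 20.8 to 22.9 and the CCR7-PDPN libraries 21.7 to 22.9. All groups overlapped within their batch. Ifnar1, the other chain (chromosome 16, 91485238 to 91507441, plus strand), had 27.7, 26.3, 27.6 and 26.3 TPM in X2 of batch 1, 32.5, 29.3, 29.1 and 28.1 in CCR7, and 33.4, 34.1, 35.4 and 33.6 in CCR7-PDPN. In batch 2 it had 26.9, 28.8, 27.4 and 28.5 TPM in X2, 27.0, 26.6, 28.4 and 28.3 in X2-PDPN, and 33.04, 33.6, 33.4 and 34.2 in CCR7-PDPN. Every CCR7-PDPN library was above every library of the other groups of its batch, by a narrow margin over CCR7, and X2 and X2-PDPN overlapped.

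Among the sensors, Ifih1, which encodes the sensor of long duplex RNA MDA5 (chromosome 2, 62595798 to 62646255, minus strand), showed the widest range. Its TPM was 4.69, 4.46, 4.27 and 4.94 in X2 of batch 1, 2.02, 2.39, 2.29 and 1.397 in CCR7, and 0.444, 0.551, 0.606 and 0.544 in CCR7-PDPN. In batch 2 it was 4.62, 4.00, 4.09 and 4.12 in X2, 1.27, 1.18, 1.08 and 1.18 in X2-PDPN, and 0.517, 0.494, 0.518 and 0.495 in CCR7-PDPN. The 3 groups were apart in each batch. In CCR7-PDPN it was under 1 TPM, the level the submitters treated as noise, in 4 of 4 libraries of either batch, with 26 to 38 reads per library.

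Ddx58 encodes RIG-I, which recognises RNA with a 5′ triphosphate (chromosome 4, 40203773 to 40239828, minus strand). It stood at 45.6, 44.4, 42.5 and 44.6 TPM in X2 of batch 1, at 30.9, 32.8, 30.0 and 29.1 in CCR7 and at 17.3, 18.0, 17.6 and 16.2 in CCR7-PDPN. The batch 2 values were 45.7, 41.3, 41.9 and 44.5 TPM in X2, 16.5, 14.1, 13.4 and 16.04 in X2-PDPN, and 18.6, 17.3, 18.2 and 16.1 in CCR7-PDPN. The 3 groups of batch 1 did not overlap, whereas the 2 groups sorted for PDPN in batch 2 did. Dhx58, for the RIG-I-like helicase LGP2 that lacks a signalling domain (chromosome 11, 100694884 to 100704271, minus strand), had 28.6, 29.0, 26.2 and 26.7 TPM in X2 of batch 1, 16.3, 13.6, 13.3 and 10.4 in CCR7 and 10.9, 11.0, 10.9 and 8.78 in CCR7-PDPN. In batch 2 it had 31.2, 26.6, 28.7 and 27.3 TPM in X2, 8.97, 9.80, 8.96 and 9.57 in X2-PDPN, and 11.0, 12.5, 11.6 and 9.63 in CCR7-PDPN. X2 was above all other libraries in each batch, and the remaining groups overlapped.

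Of the factors, Stat2 (chromosome 10, 128270559 to 128292849, plus strand), the STAT specific to the ISGF3 complex, varied least among the genes that were lower than in X2. It had 34.9, 32.9, 32.0 and 32.1 TPM in X2 of batch 1, 27.1, 21.5, 19.8 and 18.4 in CCR7, and 25.1, 26.1, 26.1 and 25.7 in CCR7-PDPN. The batch 2 levels were 31.2, 32.9, 32.6 and 31.8 TPM in X2, 24.6, 23.7, 24.7 and 23.3 in X2-PDPN, and 24.5, 26.8, 25.2 and 22.2 in CCR7-PDPN. The X2 libraries were again above all others. The CCR7 libraries spread widely and enclosed the range of CCR7-PDPN.

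Irf9, the DNA-binding subunit of ISGF3 (chromosome 14, 55603571 to 55610030, plus strand), had 33.8, 31.0, 28.8 and 32.4 TPM in X2 of batch 1, 15.3, 13.9, 15.0 and 12.6 in CCR7, and 9.70, 9.15, 9.40 and 7.81 in CCR7-PDPN. In batch 2 its TPM was 30.6, 29.3, 30.5 and 35.5 in X2, 13.1, 11.1, 10.9 and 12.5 in X2-PDPN, and 9.02, 9.17, 8.49 and 7.27 in CCR7-PDPN. The groups did not overlap in either batch. Its locus overlaps Rnf31 on the same strand, and reads over the shared stretch cannot be assigned.

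Irf7 (chromosome 7, 141262706 to 141266481, minus strand) had 22.2, 19.6, 19.7 and 22.7 TPM in X2 of batch 1, 9.57, 10.4, 8.83 and 6.99 in CCR7, and 3.96, 3.42, 3.48 and 2.32 in CCR7-PDPN. In batch 2 the values were 22.6, 18.9, 19.6 and 23.03 TPM in X2, 4.08, 2.82, 2.70 and 3.21 in X2-PDPN, and 3.70, 3.74, 3.61 and 2.96 in CCR7-PDPN. It was graded over the 3 groups of batch 1 without overlap, while the 2 groups sorted for PDPN in batch 2 overlapped. Irf1 (chromosome 11, 53770014 to 53778374, plus strand) showed no such grading. Its batch 1 libraries lay between 12.99 and 14.7 TPM for X2, between 12.5 and 14.3 for CCR7 and between 13.7 and 14.6 for CCR7-PDPN. Those of batch 2 lay between 12.7 and 13.2 TPM for X2, between 12.7 and 13.8 for X2-PDPN and between 12.3 and 13.7 for CCR7-PDPN. All groups of a batch overlapped.

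**Figure D1:**
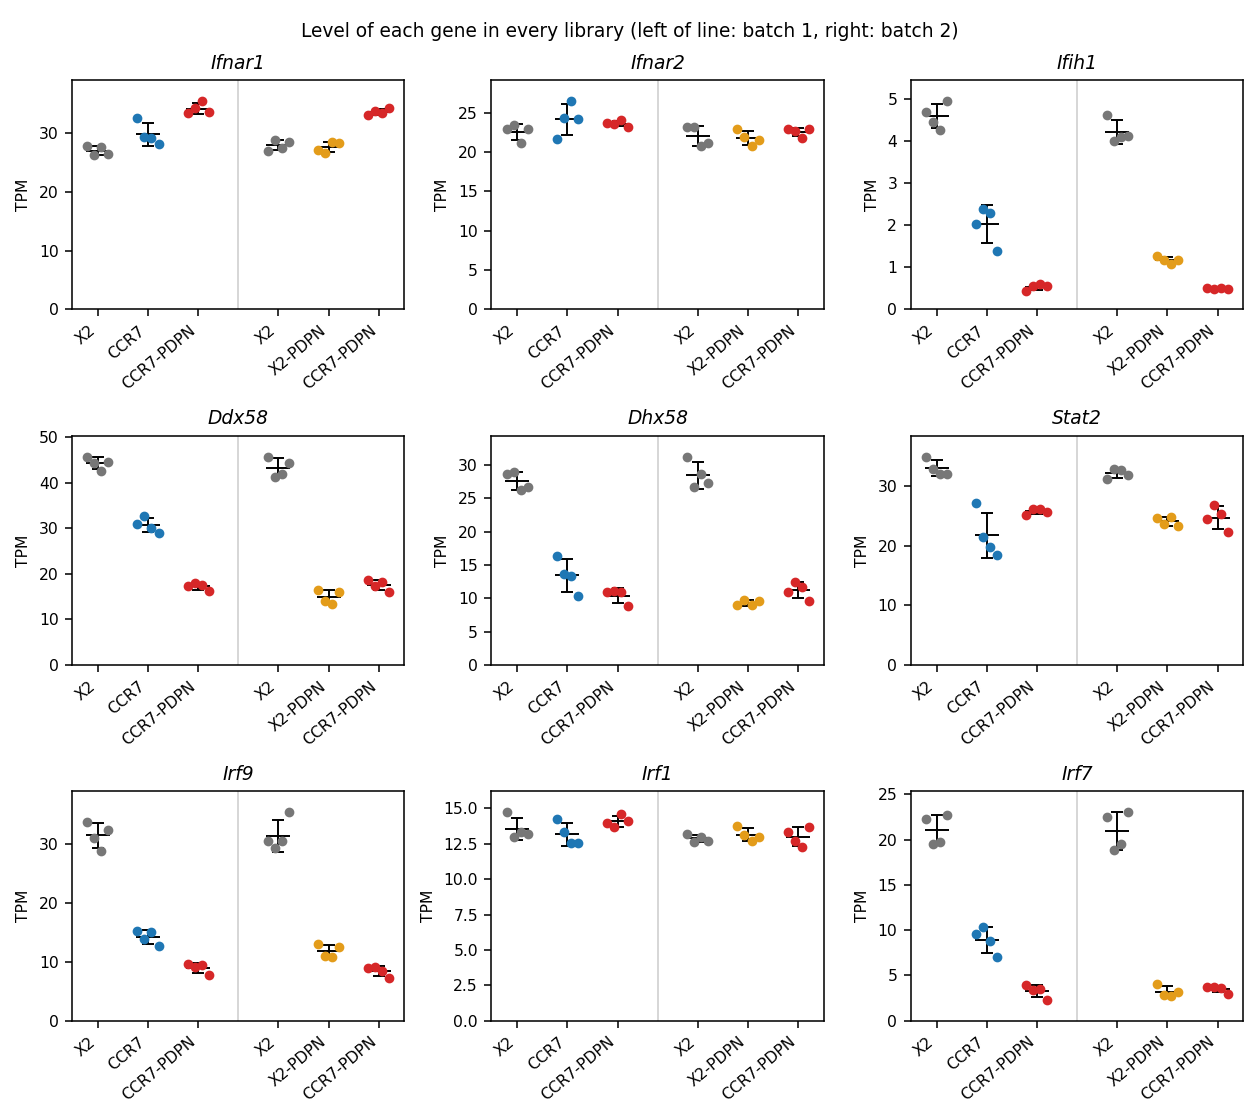
TPM (linear axis from 0) of each of the 9 genes in the 24 libraries, 1 point a library, by group, with mean and SD (n = 4) in black. Ifih1, Ddx58, Dhx58, Irf9 and Irf7 are highest in X2 of both batches, Stat2 is higher in X2 by a smaller margin, Ifnar1 is highest in CCR7-PDPN, and Ifnar2 and Irf1 are level.

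The promoters were read from RefSeq (GRCm38.p6) because 6 of the 9 genes were lower together. Promoter windows were found for 8 of the 9 genes, 10 windows in all, and the 250 bases before each start were searched on both strands for the ISRE core GAAANNGAAA and the GAS letters TTCNNNGAA. The ISRE core was held by 2.98% and the GAS letters by 7.02% of all 32851 promoters in the table. Of the 10 windows, 3 held a match. The stretches are shown in the direction of transcription with the match in capitals. Stat2 had the ISRE core on the opposite strand, 222 to 213 bases before its start. Irf1 had the GAS letters 90 to 82 bases before its start and Ifnar2 had them 214 to 206 bases before. The Stat2 stretch lies at chr10:128270256-128270305, that of Irf1 at chr11:53769904-53769952 and that of Ifnar2 at chr16:91372549-91372597, all on the plus strand.
Stat2: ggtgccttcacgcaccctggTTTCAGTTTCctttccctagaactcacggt
Irf1: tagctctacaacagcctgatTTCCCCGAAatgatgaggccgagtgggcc
Ifnar2: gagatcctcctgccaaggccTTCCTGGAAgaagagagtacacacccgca

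No match to either motif was found in the windows of Ifih1, Ddx58, Irf7, Irf9 or Ifnar1, which says only that these exact letters were not there. For comparison, the 100 bases before the gene are given for Ifih1 at chr2:62646256-62646355, Irf7 at chr7:141266482-141266581 and Ddx58 at chr4:40239829-40239928, all on the minus strand and written 5′ to 3′. These are 3 of the 5 genes that fell in CCR7-PDPN against X2. The windows of Irf9 lay inside its gene in the count table and are not shown.
Ifih1: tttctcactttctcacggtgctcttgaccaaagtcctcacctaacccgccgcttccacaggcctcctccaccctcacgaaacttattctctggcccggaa
Irf7: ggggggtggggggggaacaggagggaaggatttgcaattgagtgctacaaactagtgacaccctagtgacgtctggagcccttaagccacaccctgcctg
Ddx58: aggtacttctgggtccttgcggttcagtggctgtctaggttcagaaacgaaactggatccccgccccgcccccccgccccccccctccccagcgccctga

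Differences were tested within a batch with the quasi-likelihood test of edgeR, with p-values adjusted over all genes tested by the Benjamini-Hochberg method, and a gene is said to have risen or fallen where the adjusted p was under 0.05 and the absolute log2 fold change above 1, the thresholds of the study. CCR7 cells were first compared with X2 to ask how Ccr7 transduction, in cells selected for absence of PDPN, was related to the pathway. The parts of Ccr7 and of that selection cannot be told apart in this comparison. Of the 9 genes, 4 fell and 0 rose, where 3.18% of the 13261 genes tested fell and 3.30% rose. The adjusted p alone was passed by 6 genes that were lower and 1 that was higher, where 49.3% of all genes passed it. The median log2 fold change of the 9 was -0.60, against 0.00 over all genes. Irf7 fell 2.34-fold (-1.23 on the log2 scale with a standard error of 0.11, adjusted p = 1.1e-07). Ifih1 fell by 1.16 (standard error 0.11), Irf9 by 1.14 (standard error 0.07) and Dhx58 by 1.03 (standard error 0.10) on the log2 scale. Stat2 (-0.60, adjusted p = 2.0e-04) and Ddx58 (-0.53, adjusted p = 5.1e-10) passed the adjusted p but not the fold threshold. Ifnar1 differed by 0.14 (adjusted p = 0.015), and Ifnar2 (0.10, adjusted p = 0.17) and Irf1 (-0.04, adjusted p = 0.60) did not pass.

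Leaving out single libraries changed the call of Dhx58 and the adjusted p of both receptor chains. CCR7 replicate 4 was the shallowest of all libraries, with 22275468 reads, and had the lowest TPM of its group for 7 of the 9 genes. Without it Dhx58 differed by -0.93 and 3 genes rather than 4 fell. Ifnar1 lost its adjusted p without CCR7 replicate 1 (0.09, adjusted p = 0.060) and without X2 replicate 4 (0.12, adjusted p = 0.051), and Ifnar2 passed it without CCR7 replicate 1 (0.15, adjusted p = 0.021).

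X2-PDPN cells, which carry no Ccr7, were compared with X2 for the relation of spontaneous PDPN to the same genes. Of the 9 genes 5 fell and 0 rose, where 1.55% of the 13314 genes tested fell and 3.51% rose. The adjusted p alone was passed by 6 of the 9 genes, all lower, and by 56.8% of all genes, and the median log2 fold change was -1.42 against 0.00 over all genes. Irf7 fell 6.60-fold (log2 fold change -2.72, standard error 0.10, adjusted p = 1.1e-21). The 3 sensors fell by similar amounts, Ifih1 by 1.84 (standard error 0.10), Dhx58 by 1.61 (standard error 0.07) and Ddx58 by 1.54 (standard error 0.06) on the log2 scale. Irf9 fell by 1.42 (standard error 0.07). Stat2 was lower by a small amount (-0.42, adjusted p = 6.5e-12) that did not reach the fold threshold. The receptor chains and Irf1 lay within 0.03 of 0 on the log2 scale and none passed the adjusted p (0.60 for Ifnar1, 0.76 for Ifnar2 and 0.76 for Irf1). The approximate 95% intervals of these log2 fold changes ran from -0.10 to 0.05 for Ifnar1, from -0.13 to 0.08 for Ifnar2 and from -0.09 to 0.14 for Irf1.

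Within Ccr7-transduced cells, CCR7-PDPN was compared with CCR7. Ifih1 and Irf7 fell, 2 of the 9 genes, where 2.60% of the 13261 genes tested fell, and 0 rose, against 0.664% of all genes. By the adjusted p alone 5 were lower and 2 higher, where 41.6% of all genes passed. The median log2 fold change of the 9 was -0.36 against 0.00 over all genes. Ifih1 fell 3.77-fold (log2 fold change -1.91, standard error 0.16, adjusted p = 5.4e-09) and Irf7 2.68-fold (-1.42, standard error 0.14, adjusted p = 9.1e-07). Ddx58 (-0.80, adjusted p = 9.0e-12), Irf9 (-0.64, adjusted p = 1.3e-06) and Dhx58 (-0.36, adjusted p = 0.015) were lower without reaching the fold threshold. Ifnar1 was higher by 0.22 (adjusted p = 4.7e-04). Stat2 was higher by 0.26 (adjusted p = 0.044), a value that missed the adjusted p when CCR7 replicate 4 was left out (0.20, adjusted p = 0.082) and with most other single libraries left out. For Ifnar2 (-0.01, adjusted p = 0.93) and Irf1 (0.12, adjusted p = 0.12) no difference passed.

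CCR7-PDPN and X2 were the only derivatives sequenced in both batches, and of the 6 comparisons those of these 2 gave the largest differences of Ifih1 and Irf9. In each batch the same 5 genes, Ifih1, Ddx58, Dhx58, Irf9 and Irf7, fell and 0 rose, where 5.36% of the genes tested in batch 1 and 5.67% in batch 2 fell and 4.09% and 3.96% rose. In each batch 6 of the 9 were lower and 1 higher by the adjusted p alone, where 60.9% and 64.8% of all genes passed it. Ifih1 fell 8.42-fold in batch 1 (log2 fold change -3.07, standard error 0.14) and 8.18-fold in batch 2 (-3.03, standard error 0.12). Irf7 fell 6.28-fold and 5.91-fold, Irf9 3.44-fold and 3.66-fold, Dhx58 2.60-fold and 2.50-fold, and Ddx58 2.52-fold and 2.44-fold. Stat2 differed by -0.33 (adjusted p = 0.0080) and -0.36 (adjusted p = 4.2e-10), and Ifnar1 by 0.36 (adjusted p = 5.6e-07) and 0.29 (adjusted p = 6.8e-09), all under the fold threshold. Ifnar2 (0.09 and 0.05) and Irf1 (0.08 and 0.03) did not pass the adjusted p in either batch. The median log2 fold changes of the 9 were -1.33 and -1.29. The difference between the batches was tested for 13690 genes, and 0 (0.00%) passed the adjusted p in edgeR and 0 in DESeq2, with 293 at an unadjusted p under 0.05 in edgeR. For the 9 genes the 2 batches differed by -0.09 to 0.09 on the log2 scale.

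**Figure D2:**
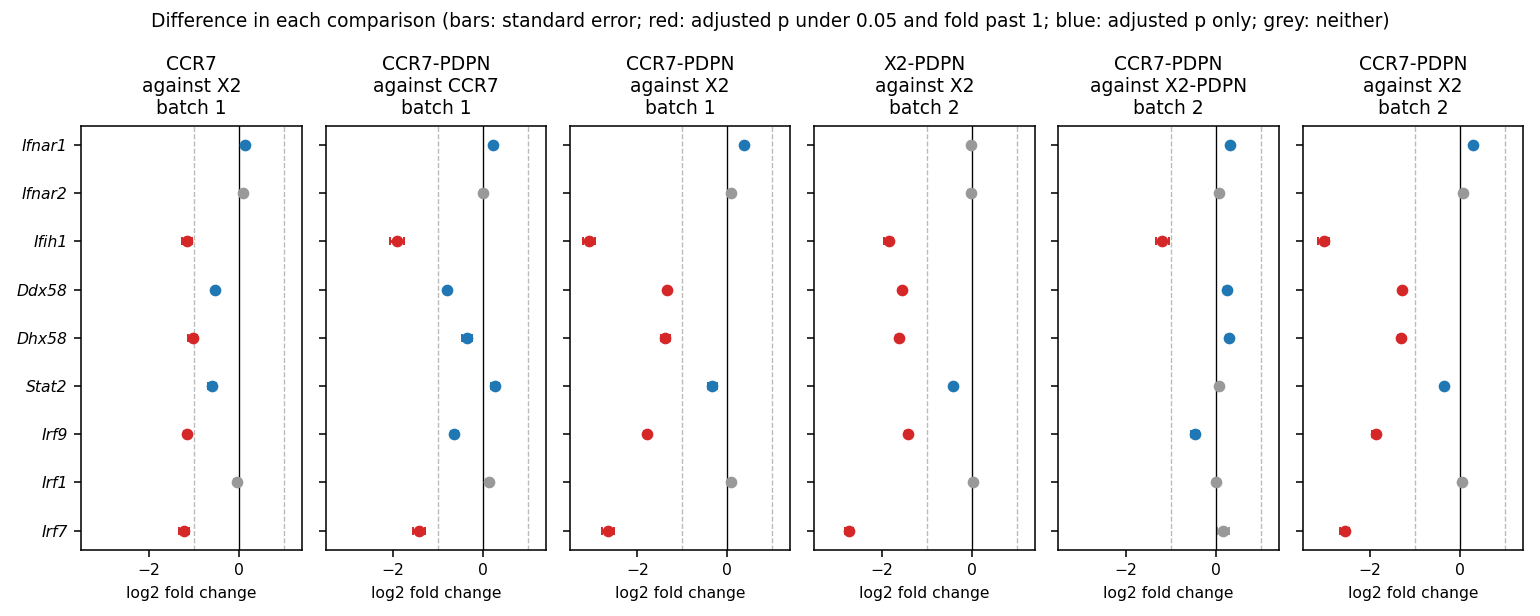
log2 fold change of the 9 genes (rows) in the 6 comparisons within a batch (panels), with standard errors. Red points passed the adjusted p of 0.05 and the fold threshold of 1 (dashed lines), blue points the adjusted p alone and grey points neither. No red point lies to the right of 0, and the only red point in CCR7-PDPN against X2-PDPN is Ifih1 at -1.19.

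CCR7-PDPN against X2-PDPN compared cells with high PDPN that did or did not carry Ccr7. Only Ifih1 fell among the 9 genes, where 6.40% of the 13314 genes tested fell, and 0 rose, where 2.76% did. By the adjusted p alone 2 were lower and 3 higher, where 63.2% of all genes passed. It was 2.28-fold lower in CCR7-PDPN (log2 fold change -1.19, standard error 0.15, adjusted p = 1.9e-09). Irf9 was lower by a smaller margin (-0.46, adjusted p = 2.1e-04). Ifnar1 (0.31, adjusted p = 9.2e-10), Dhx58 (0.29, adjusted p = 0.0011) and Ddx58 (0.25, adjusted p = 0.0032) were higher without reaching the fold threshold. Irf7 (0.16, adjusted p = 0.30), Stat2 (0.07, adjusted p = 0.18), Ifnar2 (0.07, adjusted p = 0.24) and Irf1 (0.01, adjusted p = 0.93) did not pass, and the approximate 95% interval for Irf7 ran from -0.10 to 0.42. The 3 comparisons of batch 2 share libraries, as do those of batch 1.

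The difference with PDPN in Ccr7-transduced cells was then set against that in control cells in a single model over 24 libraries. As CCR7 was sequenced only in batch 1 and X2-PDPN only in batch 2, the cells set side by side came from different batches. The 2 differences differed by more than 1 on the log2 scale for Irf7 (1.30, standard error 0.20, adjusted p = 1.0e-05) and Dhx58 (1.26, standard error 0.13, adjusted p = 9.1e-09), 2 of the 9 genes, where 0.964% of the 13690 genes tested had such a positive value and 4.48% such a negative one. Irf9 (0.78, adjusted p = 5.8e-06), Ddx58 (0.74, adjusted p = 2.2e-09), Stat2 (0.69, adjusted p = 1.7e-05) and Ifnar1 (0.25, adjusted p = 4.8e-04) also passed the adjusted p, which 40.8% of all genes did. For Irf7, Dhx58, Irf9 and Ddx58 the lowering with PDPN was smaller in the cells that carried Ccr7. Ifih1 showed a difference of -0.07 between its 2 falls of 1.84 and 1.91, with an approximate 95% interval from -0.43 to 0.28 and an adjusted p of 0.79. Ifnar2 (0.02) and Irf1 (0.10) did not pass.

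**Figure D3:**
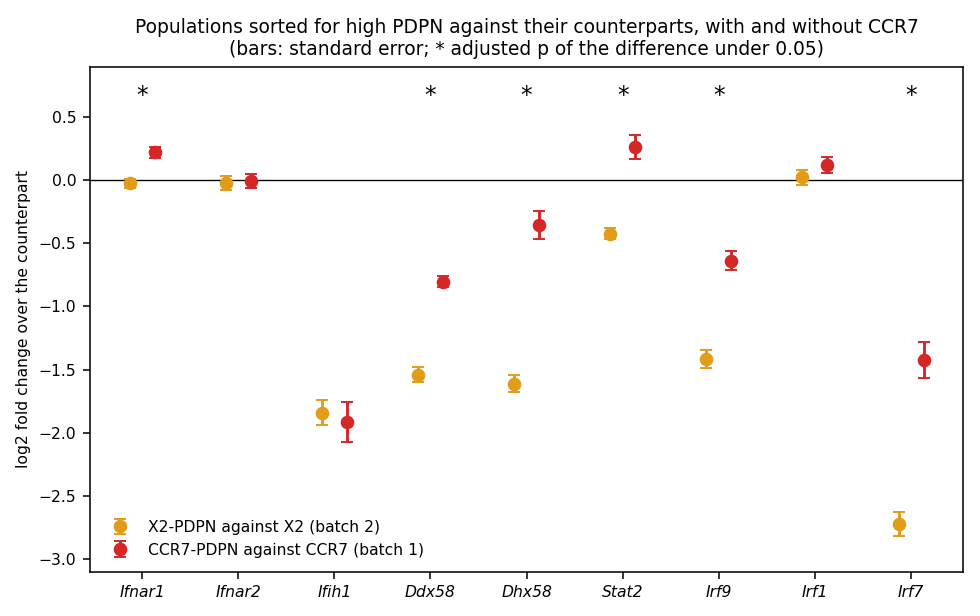
log2 fold change of each gene in X2-PDPN against X2 (orange, batch 2) and in CCR7-PDPN against CCR7 (red, batch 1), with standard errors. An asterisk marks the 6 genes whose 2 differences differed at an adjusted p under 0.05. Ifih1 has nearly the same value in both, -1.84 and -1.91, and Irf7 the values -2.72 and -1.42.

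The loci of 3 genes lie in stretches where the median of the other genes was away from 0 in Ccr7-transduced cells. Around Irf9 on chromosome 14 the 98 other tested genes within 5 Mb had a median log2 fold change of -0.42 in CCR7 against X2 and -0.53 in CCR7-PDPN against X2 of batch 1. Of these 98, 2 rose and 5 fell in CCR7 against X2, where 3.30% and 3.18% of all genes did. In CCR7-PDPN against X2 of batch 1, 2 rose and 10 fell, where 4.09% and 5.36% of all genes did. The median was -0.49 over 100 genes in CCR7-PDPN against X2-PDPN, a value close to that of Irf9 itself, -0.46. In X2-PDPN against X2 the median around Irf9 was -0.04, and Irf9 fell there by 1.42. With the neighbouring median taken off, Irf9 differed by -0.72 in CCR7 against X2, which no longer reached the fold threshold. In CCR7-PDPN against X2 of batch 1 and 2 it differed by -1.25 and -1.35. Rnf31, which overlaps Irf9 and encodes a subunit of a ubiquitin ligase, had log2 fold changes of -0.72 in CCR7 against X2, -0.45 in X2-PDPN against X2, and -0.86 and -0.87 in CCR7-PDPN against X2. The part of Rnf31 reads in the level of Irf9 was not tested.

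Ifnar1 and Ifnar2 lie next to each other on chromosome 16, and the other tested genes within 5 Mb had a median of 0.30 in CCR7 against X2, 0.27 and 0.24 in CCR7-PDPN against X2 of batch 1 and 2, 0.26 in CCR7-PDPN against X2-PDPN and -0.02 in X2-PDPN against X2. Ifngr2, a chain of the interferon-gamma receptor from the same cluster of receptor genes, had log2 fold changes of 0.39, 0.48, 0.54, 0.53 and 0.01 in the same order of comparisons. Il10rb, a chain shared by receptors for interleukin-10 and interferon-lambda, had 0.31, 0.39, 0.16, 0.30 and -0.15. With the median taken off, Ifnar1 differed by -0.16 in CCR7 against X2 and by 0.09 and 0.05 in CCR7-PDPN against X2. Of the 49 neighbours of either chain in CCR7 against X2, 3 rose and 1 fell, where 3.30% and 3.18% of all genes did. In the comparisons within a batch, neighbours of Ifih1, Ddx58, Dhx58, Stat2, Irf1 and Irf7 had medians between -0.15 and 0.13. Irf7 overlaps Phrf1 on the opposite strand, which had log2 fold changes between -0.05 and 0.19 in the 6 comparisons. Whether reads were counted by strand is not given in the sources used here.

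**Figure D4:**
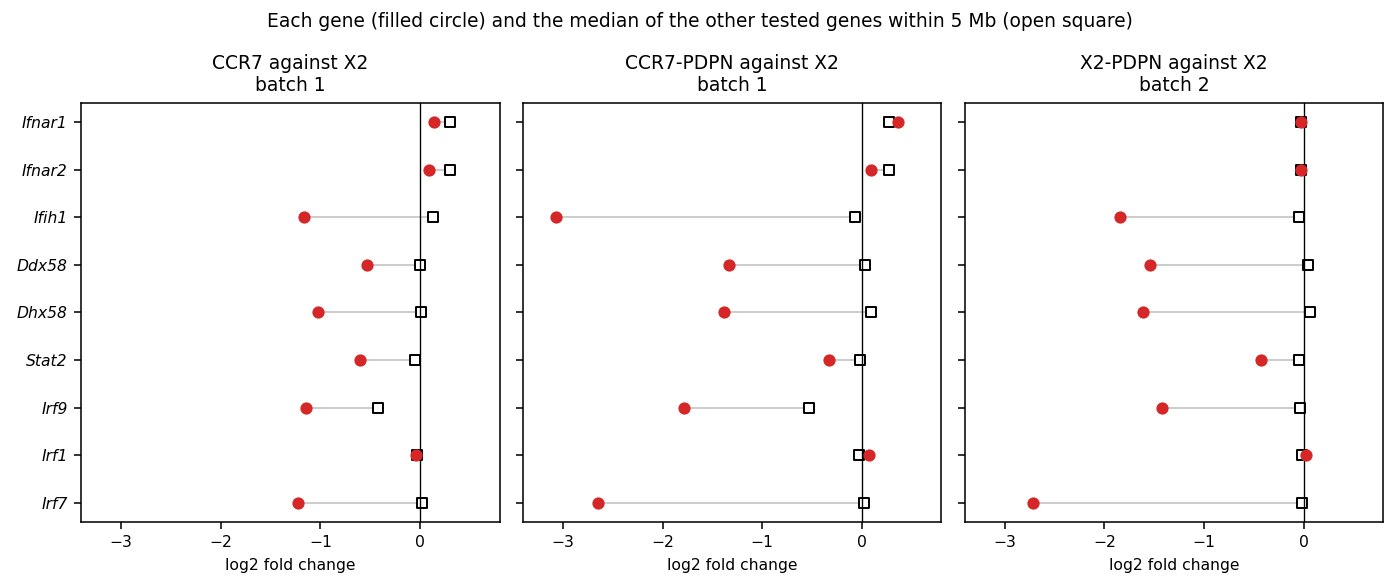
log2 fold change of each gene (filled circles) and median of the other tested genes within 5 Mb (open squares) in 3 comparisons. The squares for Irf9 (-0.42 and -0.53) and for Ifnar1 and Ifnar2 (0.30 and 0.27) lie away from 0 in both comparisons of Ccr7-transduced cells with X2, and near 0 in X2-PDPN against X2.

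Other genes of the pathway were counted in 7 lists. The interferon ligands had almost no reads in batch 1, and 0 of 11 could be tested. The filtered batch 2 table did not hold them, so there are no ligand counts for X2-PDPN. Ifnb1, the interferon-beta gene, had at most 4 reads per library in batch 1 and a mean of 0.169 TPM in X2, 0.326 in CCR7 and 0.169 in CCR7-PDPN, and the others had at most 1 read. At these totals a count of 0 allows up to 3 reads. Of 8 other receptor chains and JAK kinases 7 were tested, and 0 rose or fell in any of the 6 comparisons. Over all genes 0.664% to 4.09% rose and 1.55% to 6.40% fell, so a count of 0 of 7 is near those shares. By the adjusted p alone 4 of the 7 were higher and 2 lower in CCR7 against X2, where 49.3% of all genes passed. In X2-PDPN against X2, 2 were higher and 0 lower, where 56.8% of all genes passed. Jak1, for example, averaged between 141 and 155 TPM in every group. Among the other STATs, Stat3 and Stat5b lay between 0.03 and 0.16 on the log2 scale against X2. Stat6 lay between 0.20 and 0.53, all under the fold threshold. Stat5a differed from X2 by -0.28 in CCR7 (adjusted p = 1.5e-04), by -0.21 and -0.14 in CCR7-PDPN of batch 1 and 2, and by 0.07 in X2-PDPN.

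Among 6 other IRFs 4 were tested and 0 rose or fell, where at most 4.09% of all genes rose and 6.40% fell in a comparison. A count of 0 of 4 is near those shares. Irf3, which is activated by the sensors through MAVS and TBK1, averaged between 67.5 and 74.1 TPM in all groups. Irf8 was higher in all populations than in X2, by 0.38 to 0.87 on the log2 scale, under the fold threshold. Its adjusted p lay between 1.3e-21 and 5.7e-06 in these comparisons. The genes around Irf8 were not examined. Irf5 differed by -0.71 in X2-PDPN against X2 (adjusted p = 3.7e-04). Its differences from X2 in CCR7 (-0.29) and in CCR7-PDPN of batch 1 and 2 (-0.23 and -0.32) did not pass the adjusted p. Of 21 other sensors, adaptors and kinases 18 were tested. Between 1.55% and 6.40% of all genes fell in the 6 comparisons. Of the 18, 2 fell in CCR7 against X2, in X2-PDPN against X2 and in CCR7-PDPN against X2 of either batch. In CCR7-PDPN against X2-PDPN 1 fell. These were sensors of low level, Zbp1, which binds Z-form nucleic acid, with 0.870 TPM in X2 of batch 1, 0.447 in X2-PDPN and 0.108 in CCR7-PDPN of batch 2, and Ddx60, a helicase linked to RIG-I signalling, with 0.499 and 0.240. Mavs, the adaptor of both RNA sensors, had log2 fold changes between -0.23 and 0.36. The median of this list lay between -0.17 and -0.02 in the 6 comparisons.

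Of 12 negative regulators all were tested, and 1 or 2 fell in each of the 6 comparisons while 0 rose. Between 1.55% and 6.40% of all genes fell in these comparisons. Usp18, which blocks signalling at IFNAR2, fell in 5 of them, with mean levels of 22.9 TPM in X2 and 7.17 in CCR7 of batch 1, 2.50 in X2-PDPN and 1.43 and 1.48 in CCR7-PDPN. Tnfaip3, an inhibitor of NF-kappaB, fell in 3 comparisons and had 3.598 TPM in X2 of batch 1, 2.04 in CCR7, 3.50 in X2-PDPN and 1.71 in CCR7-PDPN of batch 1. Socs1, another brake on JAK signalling, averaged between 10.4 and 13.1 TPM in all groups. The median of the list lay between -0.21 and -0.11 on the log2 scale.

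Target genes were measured at the end of the pathway, and some of these 12 were picked by the study from the same libraries. Of the 12, 5 fell in CCR7 against X2, 8 in X2-PDPN against X2, 7 in CCR7-PDPN against CCR7 and 11 in CCR7-PDPN against X2 of either batch, and 0 rose. The share of all genes that fell was 3.18%, 1.55%, 2.60%, 5.36% and 5.67%, in that order. The medians of the 12 were -0.89, -1.63, -1.19, -2.22 and -2.18, in the same order. In CCR7-PDPN against X2-PDPN 4 fell and 1 rose, with a median of -0.25, where 6.40% and 2.76% of all genes did. The gene that rose there was Oas1a, which makes 2-5A from duplex RNA, with 8.42 TPM against 4.00. Isg15, a ubiquitin-like modifier, had 145, 67.8 and 36.2 TPM in X2, CCR7 and CCR7-PDPN of batch 1. In X2, X2-PDPN and CCR7-PDPN of batch 2 it had 142, 43.1 and 40.3 TPM. Ifi44 had 8.21, 3.09, 0.416 and 0.757 TPM in the same groups and Oasl2 22.1, 5.48, 1.92 and 3.63. Bst2, which tethers viruses to the membrane, was the most abundant with 1040 TPM in X2 of batch 1 and fell in 3 comparisons. Ifit3 had at most 2 reads in each CCR7-PDPN library, and the medians were the same with this gene set to its limit.

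**Figure D5:**
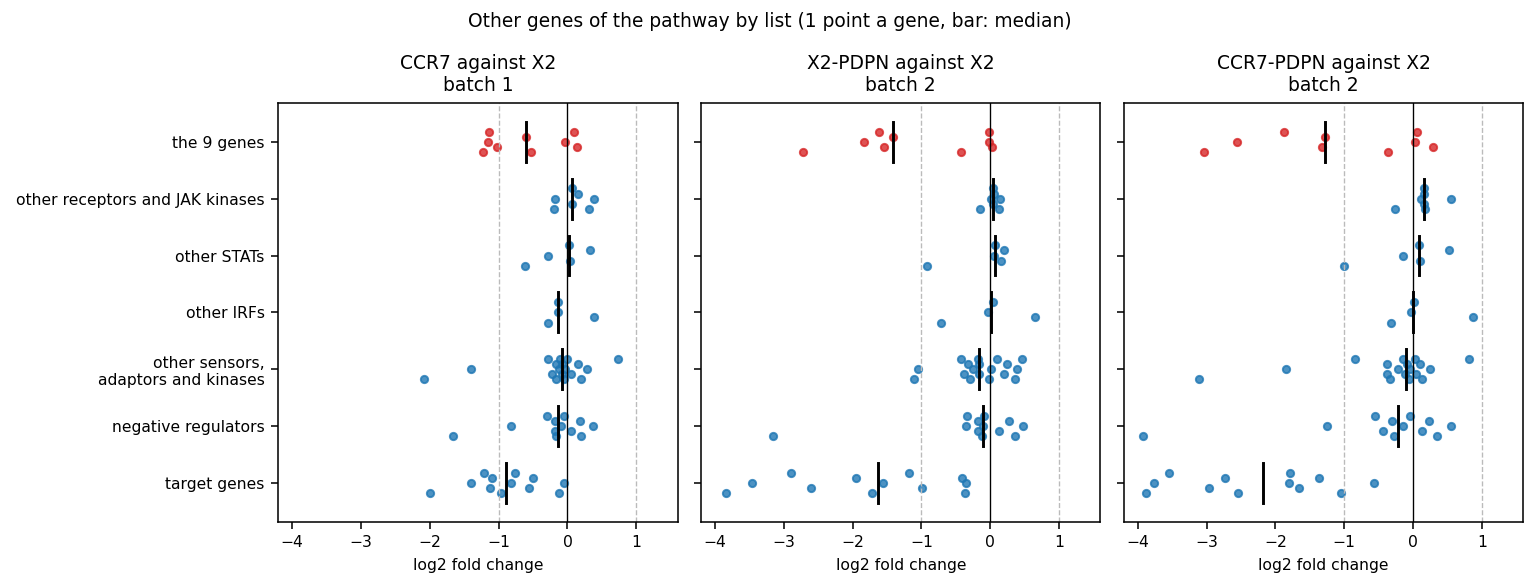
log2 fold change of each tested gene in 6 pathway lists and of the 9 genes, 1 point a gene, with the median as a bar, in 3 comparisons. The 9 genes and the target genes spread to the left, with medians of -1.42 and -1.63 in X2-PDPN against X2, and the other lists have medians between -0.21 and 0.16 in the 3 panels.

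Levels of the 9 genes were also compared across libraries, as log2 CPM relative to the X2 mean of the same batch. Over 24 libraries, which share groups and batches, Irf7 and Ddx58 had a Pearson correlation of 0.99, Irf7 and Irf9 of 0.96, Ifih1 and Irf9 of 0.96 and Ifih1 and Ddx58 of 0.90. Stat2 was less alike, with 0.79 to Dhx58 and 0.56 to Ifih1. Irf1 and Ifnar2 had correlations between -0.43 and 0.44 with the other genes, and Ifnar1 had -0.77 with Ifih1. Among 13030 genes the most alike to Ddx58 were Lgals9 (0.99), Oas3 and H2-D1, and the most alike to Irf7 were Xaf1 (0.99), Lgals9 and Ifi35. Ifih1 was most like Otud1 (0.99), Plcxd2 and Sp100, and Irf9 most like Oasl2 (0.99), Adar and Tap1. Those nearest to Dhx58 were Ifi35 (0.97), Psmd8 and Plk3, and those nearest to Stat2 were Ints10 (0.93), Dcaf15 and Cpne2. For Ifnar1 they were Aldoa (0.96), Ap3d1 and Angel1. The best matches of Ifnar2 (Sgpp1, Opn3 and Gm10762) and Irf1 (Nuf2, Cbx3 and Cdk1) reached only 0.79 and 0.76.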

How the data were processed

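The files held 2 tables, 1 per batch, of whole-number read counts per gene, deposited by the authors without normalisation. Libraries were made with a stranded mRNA kit and sequenced with single-end reads of 75 bases, and the submitters' processing notes name the build GRCm38/mm10. The batch 1 table has the layout of featureCounts output. The aligner, the counter of batch 2 and the use of strand in counting are not given in the sources used here. The batch 2 table held 13915 genes and had thus been filtered before deposit.

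From the counts, TPM was computed with the exonic lengths in the batch 1 table, and comparisons were fitted within a batch to its 12 libraries by edgeR 4.0.16 in R 4.3.3 (filterByExpr, TMM normalisation, quasi-likelihood test, Benjamini-Hochberg adjustment). The comparison of differences between batches was fitted to all 24 libraries. Thresholds were an adjusted p of 0.05 and an absolute log2 fold change of 1, standard errors are the absolute log2 fold change divided by the square root of the F statistic, intervals are approximate, and log2 CPM used a prior count of 2. Pathway genes outside the 9 were named where they passed the thresholds in a comparison, and the result of 1 gene is not reported here. Jak1, Stat3, Stat5a, Stat5b, Stat6, Irf3, Irf5, Irf8, Mavs, Socs1, Ifnb1 and the overlapping Rnf31 and Phrf1 were named after their values were seen. The 9 genes, the 7 pathway lists, the 3 marker lists and the tests were chosen with earlier results of these data known, and Ifih1, Ddx58, Dhx58, Irf9 and Irf7 were among genes the study had listed as lower in comparisons of these libraries, so their falls are not independent evidence. Replicates differed by more than sampling noise in all 36 pairs (chi-square per degree of freedom 1.99 to 20.4). The highest values were those of CCR7 replicate 1 against replicates 2, 3 and 4 of its group (20.4, 16.0 and 12.3). Outside the CCR7 group the highest was 6.59. Alternatives were DESeq2 1.42.0, RLE factors, no filter on low counts, a fit to the 2 groups compared, a replicate block, each library left out, the adjusted p alone, the median of neighbouring genes taken off, and TMM-scaled CPM per kilobase for levels. The fits were tested on simulated counts.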

Additional observations from a re-analysis of the deposited data

Results flagged for a closer look

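In 54 groups of 4 libraries, 9 genes in 6 groups, 2 had a library that stood apart from the other 3 by Dixon's criterion, which chance meets in about 1 group in 20. Dhx58 was lowest, at 8.78 TPM, in replicate 4 of CCR7-PDPN in batch 1, where the others had 10.9 to 11.0. Irf7 was lowest, at 2.96 TPM, in replicate 4 of CCR7-PDPN in batch 2, where the others had 3.61 to 3.74.

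For 6 genes the difference with PDPN in Ccr7-transduced cells differed from that in control cells by the interaction test, with values of 1.30 for Irf7, 1.26 for Dhx58, 0.78 for Irf9, 0.74 for Ddx58, 0.69 for Stat2 and 0.25 for Ifnar1 on the log2 scale. Cells with and without Ccr7 came from different batches in this test, and the share of batch in these values cannot be told apart from that of Ccr7.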

How the results depend on the processing

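Counts of the 9 genes that rose or fell were within 1.5 times of the reported ones under DESeq2, RLE factors, no filter on low counts, a fit to the 2 groups compared and each library left out. The replicate block changed no such count: with it 4 genes fell in CCR7 against X2, 2 in CCR7-PDPN against CCR7, 1 in CCR7-PDPN against X2-PDPN and 5 in each of the other 3 comparisons within a batch. Replicate numbers did not pair the libraries, since same-numbered libraries had correlations of -0.097 to 0.083 and 6 of 24 were most like their own number. By the adjusted p alone, 1 gene was higher in CCR7 against X2 and in CCR7-PDPN against X2 of either batch, 2 were higher and 5 lower in CCR7-PDPN against CCR7, and 3 were higher and 2 lower in CCR7-PDPN against X2-PDPN, which follows from dropping the fold threshold. Taking off the median of neighbouring genes brought Irf9 to -0.72 in CCR7 against X2, under the fold threshold, and turned Ifnar1 to -0.16 there. It turned Ifnar2 to -0.20 in CCR7 against X2, 0.024 in CCR7-PDPN against CCR7, -0.18 and -0.19 in CCR7-PDPN against X2 of batch 1 and 2, 0.0023 in X2-PDPN against X2 and -0.19 in CCR7-PDPN against X2-PDPN, where it turned Irf9 to 0.033 and Irf1 to -0.039. With 1 library left out, values that had not passed the adjusted p crossed 0: Ifnar2 ranged from -0.058 to 0.044 in CCR7-PDPN against CCR7, from -0.056 to 0.0084 in X2-PDPN against X2 and from -0.039 to 0.065 in the interaction, where Ifih1 ranged from -0.19 to 0.0087. Irf1 ranged from -0.023 to 0.042 in CCR7-PDPN against X2-PDPN and from -0.00074 to 0.065 in CCR7-PDPN against X2 of batch 2. Between the batches of CCR7-PDPN against X2, Ifih1 ranged from -0.044 to 0.099, Dhx58 from -0.013 to 0.12, Stat2 from -0.070 to 0.017 and Irf7 from -0.044 to 0.19. The adjusted p was crossed without CCR7 replicate 1 by Ifnar2 in CCR7 against X2 (0.15, adjusted p = 0.021) and by Irf1 in CCR7-PDPN against CCR7 (0.17, adjusted p = 0.029), and in CCR7-PDPN against X2-PDPN by Irf7 without X2-PDPN replicate 1 (0.30, adjusted p = 0.046) and by Stat2 without CCR7-PDPN replicate 4 (0.11, adjusted p = 0.020). For Stat2 in CCR7-PDPN against CCR7 it was lost without any 1 of 10 libraries, at 0.053 to 0.11. Ifih1 had 26 to 38 reads in CCR7-PDPN libraries, which limits the precision of its fold there.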
